A study of Danio rerio with 5 samples.

Results

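Vascular endothelial cells line the inside of blood and lymph vessels. They are set apart from other cells by vascular endothelial growth factor (VEGF) receptors, Tie receptors, ETS-family transcription factors and the proteins of their junctions and pores. Described here are 7 zebrafish genes used as endothelial markers: fli1, kdrl, flt4, tie1, cdh5, cldn5a and plvapb. The members were probe sets whose only gene symbol in the platform's probe-to-gene table is one of these names. The rule found 9 of 15502 probe sets, for 6 of the 7 genes and of 8793 named genes in all. There were 3 probe sets for cldn5a, 2 for fli1 and 1 each for kdrl, flt4, tie1 and plvapb. No probe set carried cdh5 as its only symbol, so cdh5, the gene of vascular endothelial cadherin, was not analysed here. A further probe set listed with plvapb and a second gene was left out, and the paralogs plvapa, cldn5b, kdr and flt1 were not analysed here.

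RNA came from whole AB-strain zebrafish larvae at 7 days after fertilization, measured on Affymetrix arrays. Embryos collected from wild-type pairs were left unirradiated (control, 1 array) or were irradiated at 24 h with 12 Gy (1 array) or 15 Gy (3 arrays) of protons at 8 MeV/u and 7.5 Gy/min. Each array held a pool of 20 animals from combined clutches. Pools are labelled as biological replicates, but the design names only 1 group of 60 embryos per dose, so the spread between the 15 Gy pools may be technical. All values are log2 intensities of a probe set, as normalized by the submitters. Intensities of different probe sets differ with their probes, so levels are compared between arrays and never between genes.

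The control and the 12 Gy group had 1 array each, so the spread in the limma comparisons between doses came from the 3 arrays at 15 Gy. Median log2 intensities of the 5 arrays lay between 5.95 and 6.03. RNA quality was read from actin, as the intensity of its 5′ probe set divided by that of its 3′ probe set. This ratio was 0.0171 for the control array, 0.0354 for the 12 Gy array and 0.129, 0.0350 and 0.108 for 15 Gy replicates 1, 2 and 3. The only control array thus had the lowest ratio. In every comparison with it, RNA quality and irradiation cannot be told apart. An exact permutation test of the 4 irradiated arrays against the control array cannot give a two-sided p below 0.2. In a pool of whole larvae, fewer endothelial cells and less RNA per endothelial cell cannot be told apart, and neither can more of each.

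The marker probe sets did not all lie above the control. In the irradiated larvae plvapb, the main cldn5a probe set, kdrl and 1 of the fli1 probe sets lay above the control array in each of the 4 irradiated arrays. The Tie receptor gene tie1 and the lymphatic and venous receptor gene flt4 stayed within 0.27 of the control on the log2 scale in every array, and the other fli1 probe set lay below the control. With limma, a linear model with variances moderated across probe sets, 0 of the 9 differed at 15 Gy by an adjusted p under 0.05, as did 0.0% of all probe sets (adjusted p 0.167 to 0.813). At an unadjusted p of 0.05, 4 of the 9 were higher and 0 lower at 15 Gy, against 14.2% higher and 12.0% lower of all probe sets.

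**Figure D1:**
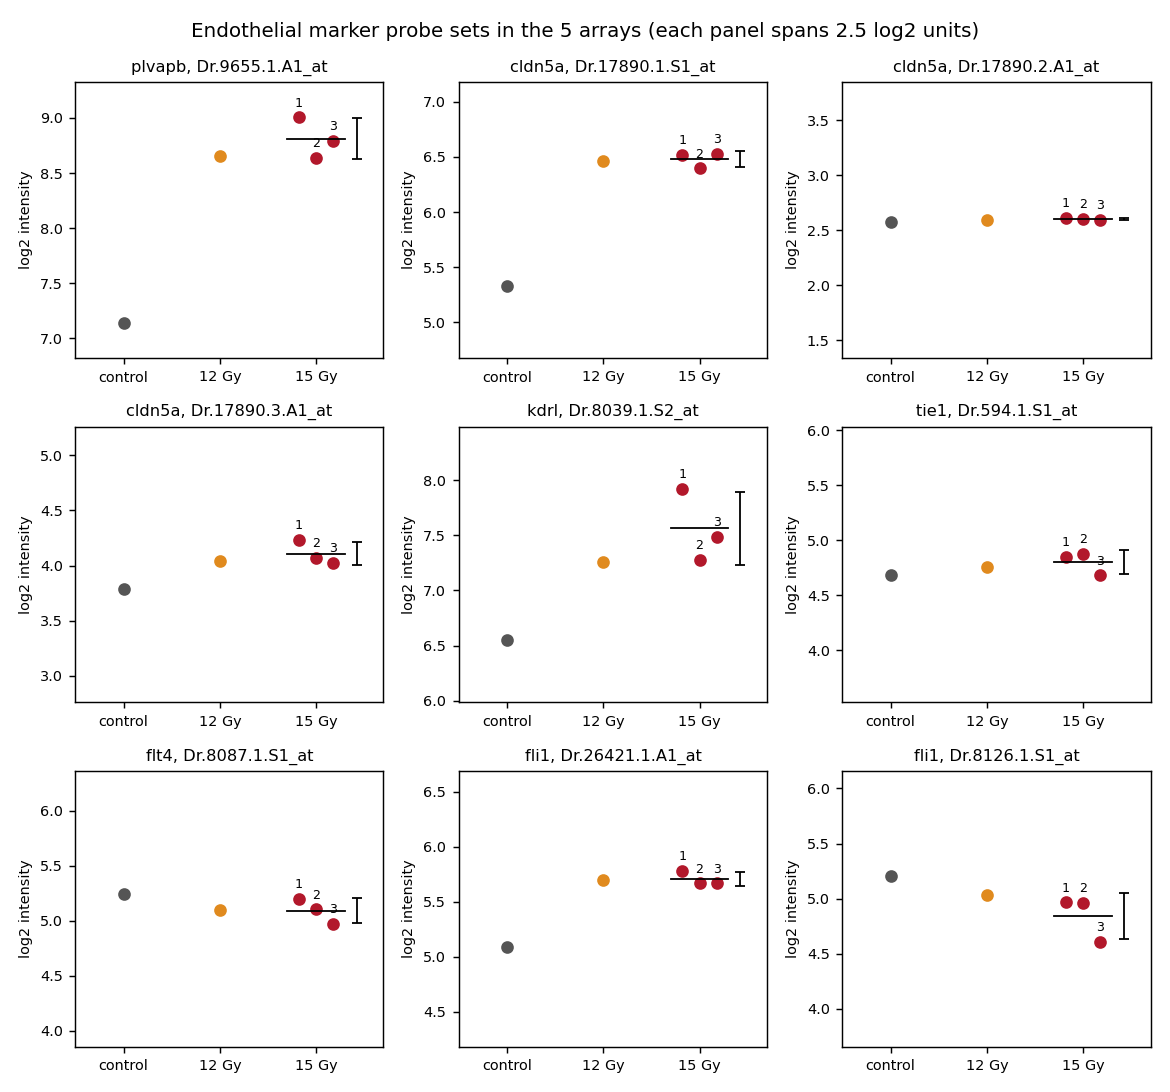
Log2 intensity (vertical axes, each panel spanning 2.5 units) of the 9 endothelial marker probe sets in the control array, the 12 Gy array and 15 Gy replicates 1, 2 and 3 (numbered points), with the mean of the 15 Gy arrays as a line and its SD (n = 3) as a bar beside it. The irradiated arrays sit well apart from the control for plvapb and for cldn5a probe set Dr.17890.1.S1_at, whereas tie1 and flt4 stay near it.

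The gene plvapb encodes a membrane glycoprotein that forms the diaphragms of endothelial pores and caveolae. The mammalian counterpart marks permeable vessels and is low in vessels of the mature blood-brain barrier. Probe set Dr.9655.1.A1_at of plvapb stood at 7.14 in the control array, 8.65 in the 12 Gy array and 9.0, 8.64 and 8.79 in 15 Gy replicates 1, 2 and 3. On the linear scale these were intensities of 141, 402, 514, 398 and 443 in the same order. The control was the lowest array by a wide margin, the 12 Gy array lay among the 15 Gy arrays, and irradiated and control values did not overlap. The 15 Gy mean was 8.81 ± 0.19 (SD, n = 3), which is 1.67 above the control (SE 0.18, 3.18-fold; limma adjusted p = 0.167, 95% interval 1.11 to 2.23). The 12 Gy array lay 1.51 above the control (SE 0.22; limma adjusted p = 0.207). Ranking the 5 arrays by plvapb or by the actin ratio gave a single order, one that 5.01% of all probe sets shared and 7.07% showed in reverse. For kdrl and for Dr.17890.1.S1_at of cldn5a the order differed from it only by a swap of neighbouring arrays. The share of all probe sets with such a near match was not counted. The part of RNA quality in the differences of plvapb, kdrl and cldn5a was not tested. It cannot be told apart from that of irradiation with 1 control array.

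The gene cldn5a encodes claudin 5a, a transmembrane protein of tight junctions that seals vessels of the brain, and in zebrafish embryos it is also known from the lining of the brain ventricles. Its probe set with the highest signal, Dr.17890.1.S1_at, stood at 5.32 in the control array, 6.46 in the 12 Gy array and 6.52, 6.40 and 6.53 in 15 Gy replicates 1, 2 and 3. The irradiated arrays lay close together and all above the control. The mean at 15 Gy was 6.48 ± 0.07 (SD, n = 3), 1.16 above the control (SE 0.10, 2.23-fold; limma adjusted p = 0.167, 95% interval 0.86 to 1.45). At 12 Gy the difference was 1.14 (SE 0.12; limma adjusted p = 0.203).

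The other cldn5a probe sets moved less. Dr.17890.3.A1_at stood at 3.79 in the control array, 4.04 in the 12 Gy array and 4.23, 4.07 and 4.03 at 15 Gy, so the irradiated arrays again lay above the control, by 0.32 at 15 Gy (SE 0.12). Dr.17890.2.A1_at stayed between 2.57 and 2.61 in all 5 arrays. Both lay below the lower quartile of every array, and the values of Dr.17890.2.A1_at in the 12 Gy array and 15 Gy replicate 3 were identical to 8 decimals. Averaged over its 3 probe sets, cldn5a was 0.50 above the control at 15 Gy in place of 1.16.

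The genes plvapb and cldn5a, whose proteins are known from leaky and from sealed vessels, both exceeded the control in each irradiated array. At 15 Gy, the control was exceeded at least 2-fold in each of the 3 arrays by these 2 of the 9 probe sets and by 4.14% of all probe sets. None lay at least 2-fold below the control in each array at 15 Gy (0 of 9), against 2.81% of all. The same 2 probe sets were at least 2-fold above the control at 12 Gy, as were 5.43% of all probe sets, and in all 4 irradiated arrays, as were 3.47%.

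Receptors for VEGF ligands came next. The kdrl gene encodes a receptor tyrosine kinase that carries most of the signal for blood vessel growth from Vegfa ligands in zebrafish. Its probe set Dr.8039.1.S2_at stood at 6.55 in the control array, 7.26 in the 12 Gy array and 7.92, 7.28 and 7.49 in 15 Gy replicates 1, 2 and 3. Replicate 1 was the highest, and no irradiated array reached down to the control. The 15 Gy mean of kdrl was 7.56 ± 0.33 (SD, n = 3), 1.02 above the control (SE 0.31, 2.02-fold; limma adjusted p = 0.183, 95% interval 0.07 to 1.96). At 12 Gy the difference was 0.71 (SE 0.38; limma adjusted p = 0.416), with an interval of −0.45 to 1.87 that includes 0.

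The flt4 gene encodes the receptor for Vegfc, which drives the growth of veins and lymph vessels. Probe set Dr.8087.1.S1_at of flt4 stood at 5.24 in the control array, 5.10 in the 12 Gy array and 5.20, 5.10 and 4.97 at 15 Gy. The control was the highest array, but replicate 1 lay only 0.04 below it. The difference at 15 Gy was −0.15 (SE 0.12; limma adjusted p = 0.472, 95% interval −0.52 to 0.23), an interval that includes 0.

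The tie1 gene encodes a receptor tyrosine kinase that works with the angiopoietin receptor Tek in vessel stability and lymphatic growth. Probe set Dr.594.1.S1_at of tie1 stood at 4.69 in the control array, 4.76 in the 12 Gy array and 4.85, 4.88 and 4.68 at 15 Gy. Control and irradiated arrays overlapped, since 15 Gy replicate 3 lay marginally below the control. The difference at 15 Gy was 0.11 (SE 0.12; limma adjusted p = 0.563, 95% interval −0.25 to 0.48). The partner receptor gene tek differed by 0.01 (SE 0.09). All 5 arrays placed tie1 and flt4 below the array median.

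The fli1 gene encodes an ETS-family transcription factor of endothelial cells, and it is also expressed in blood cells and in neural crest derivatives of zebrafish. Its probe sets disagreed, and both lay below the array median in all 5 arrays. Dr.26421.1.A1_at, which had the higher mean, stood at 5.09 in the control array, 5.70 in the 12 Gy array and 5.78, 5.67 and 5.67 at 15 Gy, with replicates 2 and 3 identical to 8 decimals. The irradiated arrays all lay above the control, by 0.61 at 15 Gy (SE 0.09, 1.53-fold; limma adjusted p = 0.167, 95% interval 0.34 to 0.89) and by 0.61 at 12 Gy (SE 0.11).

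Dr.8126.1.S1_at of fli1 stood at 5.20 in the control array, 5.03 in the 12 Gy array and 4.97, 4.96 and 4.61 at 15 Gy. All irradiated arrays lay below the control, replicate 3 the farthest, and the difference at 15 Gy was −0.36 (SE 0.20; limma adjusted p = 0.312, 95% interval −0.98 to 0.26). The value of the first fli1 probe set minus that of the second was −0.12 in the control array, 0.67 in the 12 Gy array and 0.81, 0.70 and 1.06 at 15 Gy. Their mean difference at 15 Gy was 0.13, so no direction is given for fli1 as a gene. The related gene fli1rs, listed in older annotation as fli1b, differed by −0.01 (SE 0.12).

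By position, 6 of the 9 probe sets lay above the control in every 15 Gy array, where 34.0% of all probe sets did. Below it in every 15 Gy array lay 2 of 9, against 41.9% of all. All 3 cldn5a probe sets are among the 6, and the dimmest of them differed by only 0.03 at 15 Gy (SE 0.07). By gene, 4 of the 6 measured lay above the control in every 15 Gy array and 1 below, beside 41.0% and 36.5% of named genes. The 4 include fli1, for which no direction is given. The markers were chosen with earlier results of these data known. Over the 9 probe sets the median difference was 0.32 at 15 Gy and 0.25 at 12 Gy, beside −0.03 and −0.01 over all probe sets. With the probe set of highest mean for each gene, the 6 measured genes had medians of 0.82 and 0.66. Over all named genes these were 0.01 and 0.0. For fli1 that choice depends on the irradiated arrays, since in the control array Dr.8126.1.S1_at was the higher (5.20 against 5.09). The 6 genes thus include fli1 by its higher-reading probe set only. The summed intensity of the 6 genes was 372 in the control array, 756 in the 12 Gy array and 968, 751 and 822 in 15 Gy replicates 1, 2 and 3. Such a sum mostly follows the probe sets with the highest signal. Of it, plvapb alone gave 141, 402, 514, 398 and 443 in the same order, and flt4 gave 38, 34, 37, 34 and 31.

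**Figure D2:**
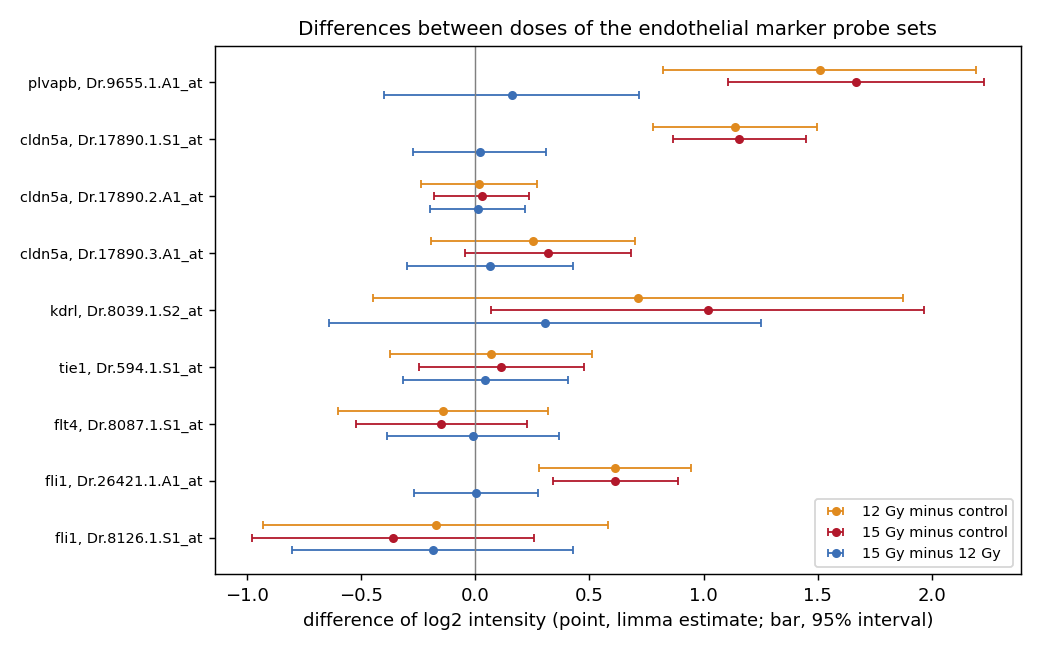
Differences of log2 intensity (horizontal axis) for the 9 endothelial marker probe sets (rows), as limma estimates with 95% intervals, for 12 Gy minus control, 15 Gy minus control and 15 Gy minus 12 Gy. The 15 Gy intervals of plvapb, Dr.17890.1.S1_at of cldn5a, kdrl and Dr.26421.1.A1_at of fli1 lie above 0, and all intervals of 15 Gy minus 12 Gy include 0.

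The doses were then compared. At 12 Gy, 7 of the 9 probe sets lay above the control, where 46.0% of all probe sets did. With limma 0 of 9 passed that threshold (0.0% of all), and at an unadjusted p of 0.05, 3 were higher and 0 lower, against 9.46% higher and 7.59% lower of all probe sets. Between 15 Gy and 12 Gy the differences of the 9 ran from −0.19 to 0.30, and 0 passed (limma adjusted p 0.846 to 0.999), where 0.00645% of all probe sets passed. None passed an unadjusted p of 0.05 either, a level that 4.29% of all reached higher and 4.63% lower.

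The 12 Gy array lay within the range of the 15 Gy arrays in 7 of the 9 probe sets. Only kdrl lay above the 12 Gy array in every 15 Gy array (1 of 9, 26.1% of all), with replicate 2 exceeding it by little, and only Dr.8126.1.S1_at of fli1 lay below it in every 15 Gy array (1 of 9, 26.3% of all). For kdrl the interval of 15 Gy minus 12 Gy was −0.64 to 1.25, and for plvapb it was −0.40 to 0.72. For Dr.17890.1.S1_at of cldn5a it was narrower, −0.27 to 0.31. With all 4 irradiated arrays taken as 1 group against the control, a fit whose spread also includes the 12 Gy array, 0 of 9 passed by limma and 0.0387% of all probe sets did.

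Replicates at 15 Gy differed among themselves. Replicate 1 was the highest of the 5 arrays in 5 of the 9 probe sets, among them plvapb, kdrl and Dr.26421.1.A1_at of fli1. The others were Dr.17890.2.A1_at and Dr.17890.3.A1_at of cldn5a, which lay below the lower quartile of every array. The share of all probe sets with replicate 1 highest was not counted. Relative to the control, plvapb was higher by 1.86, 1.49 and 1.65 in replicates 1, 2 and 3. The corresponding differences of kdrl were 1.38, 0.73 and 0.94, a wider spread. Those of Dr.17890.1.S1_at of cldn5a were 1.19, 1.07 and 1.20. Replicate 1 also had the highest actin ratio, whose part in these values was not tested.

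Other genes of vessels were read from 7 lists of 136 genes in all, of which 60 were measured. Among these, 26 exceeded the control in every 15 Gy array and 24 lay below it, with a median difference of 0.00. Of all 8793 named genes, 41.0% lay above and 36.5% below, shares close to those of the 60. At least 2-fold above the control in every 15 Gy array were 5 of them, and 0 at least 2-fold below, against 5.09% and 2.49% of named genes. None passed the limma test (0 of 60), and at an unadjusted p of 0.05, 16 were higher and 9 lower, against 17.4% higher and 10.4% lower of named genes.

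**Figure D3:**
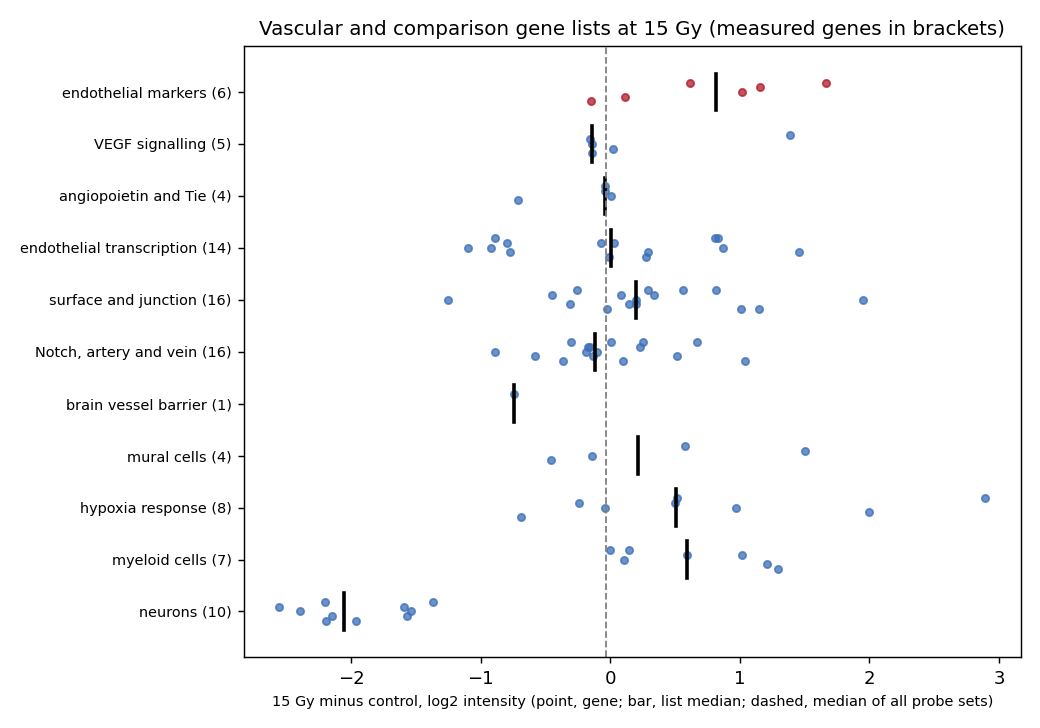
Difference of log2 intensity, 15 Gy minus control (horizontal axis), of each measured gene (points) in the endothelial marker list, the other vascular lists, hypoxia response, myeloid and neuron lists (rows), with the list median (bar) and the median of all probe sets, −0.03 (dashed line). The marker genes run from −0.15 to 1.67, and most vascular lists spread to both sides of 0.

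Of named genes, 41.0% lay above the control in every 15 Gy array and 36.5% below it. In the list of VEGF signalling, 1 of 5 measured genes lay above and 3 below, too few to be set apart from these shares. The gene above was vegfaa, which encodes the main ligand of the kdrl product. It stood at 4.81 in the control array, 6.48 in the 12 Gy array and 6.68, 5.91 and 5.99 at 15 Gy, a difference of 1.39 at 15 Gy (SE 0.39; limma adjusted p = 0.178). The 12 Gy array exceeded 15 Gy replicates 2 and 3, and no irradiated array approached the control. The flt4 ligand gene vegfc (−0.15), the co-receptor gene nrp1a (−0.14) and the signalling gene plcg1 (−0.14) differed little. In the angiopoietin and Tie list, 0 of 4 lay above and 1 below, again beside 41.0% and 36.5% of named genes. The gene below was ptprb, a phosphatase gene of endothelial junctions (−0.71, SE 0.21; limma adjusted p = 0.18), at 6.04 in the control array, 4.85 in the 12 Gy array and 5.08, 5.46 and 5.46 at 15 Gy.

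Transcription factor genes of the endothelium lay on both sides of the control. Of the 14 measured, 6 lay above the control in every 15 Gy array and 6 below, beside 41.0% and 36.5% of named genes. These shares are close, so the counts are not read as particular to the list. Highest at 15 Gy against control were the Krüppel-like factor genes klf6a (1.46, SE 0.33) and klf2b (0.87, SE 0.24). Next was the ETS gene ets1 (0.83, SE 0.32). A second ets1 probe set gave 0.36. Lowest were the venous factor gene nr2f2 (−1.10, SE 0.37), gata2a (−0.92, SE 0.25) and tal1 (−0.89, SE 0.25), the last 2 being genes of blood and vessel progenitors. The tal1 probe set lay below the lower quartile of all 5 arrays. Limma adjusted p for these 6 genes ran from 0.167 to 0.216. The genes nr2f2, gata2a and tal1 are also expressed in neurons. Of neuron marker genes, 10 of 10 measured lay below the control in every 15 Gy array, beside 36.5% of named genes. The summed intensity of these neuron markers was 17644 in the control array, 6812 in the 12 Gy array and between 2359 and 7899 at 15 Gy. The part of neuronal RNA in these differences was not tested.

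Of 16 surface and junction genes, 11 lay above the control in every 15 Gy array and 4 below, beside 41.0% and 36.5% of named genes, with a median difference of 0.20 and no test of the group. The largest difference was that of tfpia, which encodes an inhibitor of blood clotting. Its main probe set stood at 6.06 in the control array, 7.82 in the 12 Gy array and 8.17, 7.76 and 8.08 at 15 Gy, 1.95 above the control (SE 0.21, 3.86-fold; limma adjusted p = 0.167), and a second probe set gave 1.53. The caveolin gene cav1, whose product builds the caveolae in which Plvap diaphragms lie, was 1.15 above (SE 0.13; limma adjusted p = 0.167). Its 4 probe sets gave 1.15, 1.61, 1.71 and 0.00, and cav1 is not limited to endothelium. The phosphatase gene dusp5 was 1.01 above (SE 0.49).

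Lower at 15 Gy were the peptide ligand gene apln (−1.25, SE 0.39), its receptor gene aplnra (−0.45, SE 0.13) and the sphingolipid receptor gene s1pr1 (−0.31, SE 0.08). For apln the arrays stood at 7.68 in the control, 6.65 in the 12 Gy array and 5.97, 6.78 and 6.54 at 15 Gy. None of these passed the limma test (adjusted p 0.174 to 0.185).

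Genes of Notch signalling and of artery and vein identity also lay on both sides. Of the 16 measured, 6 lay above the control in every 15 Gy array and 7 below, beside 41.0% and 36.5% of named genes. Here too the shares are close, and the counts are not read as particular to the list. Highest were the chemokine receptor gene cxcr4a (1.04, SE 0.31) and the Notch ligand gene jag1b (0.67, SE 0.10). The ephrin receptor gene ephb4b (0.51, SE 0.13) followed. Lowest were 3 Notch target genes, hey1 (−0.89, SE 0.25), hey2 (−0.58, SE 0.16) and heyl (−0.37, SE 0.08), and each of them lay below the control in all 4 irradiated arrays. The heyl probe set lay below the lower quartile of all 5 arrays and that of hey2 in 4 of them. The hey genes also act in other tissues, the nervous system among them. Only 1 of 16 genes of the brain vessel barrier list was measured, the Wnt effector gene lef1 (−0.74, SE 0.27), which is not particular to vessels. Of 4 mural cell genes, 2 lay above and 2 below, beside 41.0% and 36.5% of named genes. The smooth muscle genes tagln (1.51, SE 0.41) and acta2 (0.58, SE 0.15) were above, and rgs5a (−0.45, SE 0.26) and tbx18 (−0.14, SE 0.15) below, although a second, dimmer rgs5a probe set gave 0.27.

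Marker lists of other cells that express some of these genes were set beside them. Of 7 measured myeloid genes, 6 lay above the control in every 15 Gy array and 0 below, beside 41.0% and 36.5% of named genes, with a summed intensity of 320 in the control array, 458 in the 12 Gy array and 492 to 626 at 15 Gy. Neural crest and cartilage genes had 4 of 8 above and 1 below (median 0.06), erythroid genes 1 of 6 above and 4 below (median −0.06) and thrombocyte genes 0 of 4 above and 2 below (median −0.11). The part of such cells in the fli1 and kdrl values was not tested.

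The genes with the most similar values were found by the root mean square difference between profiles over the 5 arrays, each centred on its mean, among 8174 genes, leaving out those known only by a clone or provisional name. Those nearest to plvapb were jak1 (0.04), daw1 (0.05) and isg20 (0.06), which encode a cytokine receptor kinase, a dynein assembly factor and an exonuclease. Nearest to cldn5a were sft2d1 (0.05), the leukocyte plastin gene lcp1 (0.05) and plxdc2b (0.05). Nearest to kdrl were the collagen-modifying enzyme gene plod3 (0.02), the death receptor adaptor gene tradd (0.04) and the cell polarity gene llgl2 (0.04). Within 0.2 of these profiles lay 154 genes for plvapb, 315 for cldn5a and 700 for kdrl. Their patterns over 5 arrays were thus shared with many other genes. How many of these are expressed in endothelium was not counted.

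**Figure D4:**
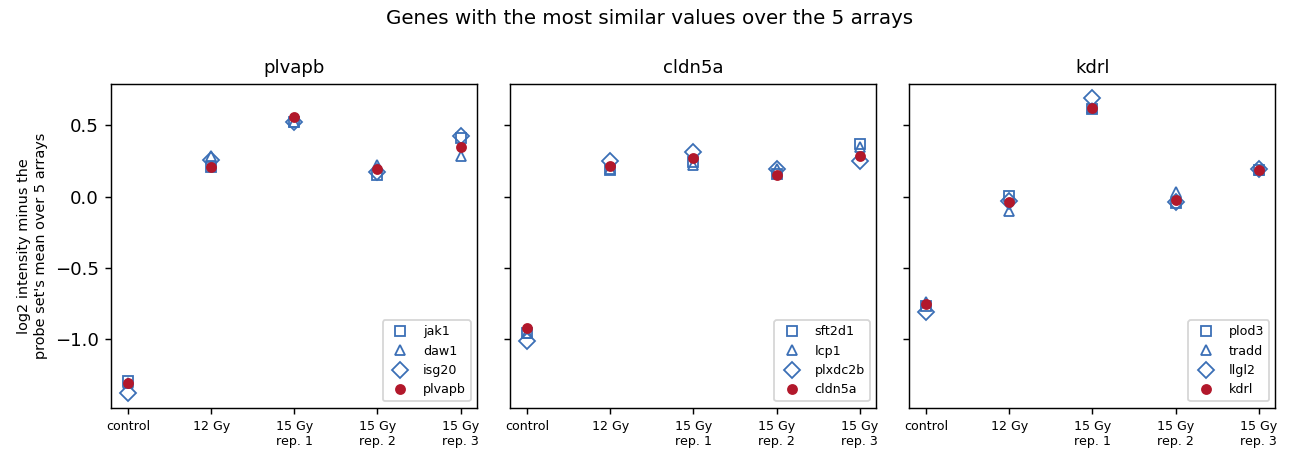
Log2 intensity minus the probe set's mean over the 5 arrays (vertical axis) for plvapb, cldn5a and kdrl (filled points) and the 3 genes nearest to each (open symbols), in the control array, the 12 Gy array and 15 Gy replicates 1, 2 and 3. In each panel the control is the lowest array, and for kdrl replicate 1 stands above the other irradiated arrays.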

How the data were processed

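Each deposited value is the intensity of a probe set, linear and between 3.99 and 24171. Per the submitters' processing notes the authors used RMA, the robust multi-array average, which subtracts background, equalizes the arrays' quantiles and combines the probes of a set; its version is not given in the sources used here. Total RNA (6 µg) was labelled with biotin, per the labels' protocols. No batch or scan date is given.

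The values were turned to log2 with no added constant. The 115 control probe sets were left out. Gene symbols came from the platform table, updated through RefSeq GRCz12tu names (10795 probe sets with 1 symbol, 135 with several, 4572 not listed). Where a gene had more than 1 probe set, that with the highest mean stood for it. The limma 3.58.1 model (R 4.3.3) estimated group means over 15502 probe sets and 5 arrays, with two-sided tests and Benjamini-Hochberg adjustment (threshold 0.05). It had 2 residual and 1.20 prior degrees of freedom. For 15 Gy against control, the lowest adjusted p of the markers was also the lowest of all probe sets. The step was also run on simulated data, whose planted differences were all larger than those of the markers. That run therefore does not show how often differences of the markers' size would pass. Tables and plots came from Python 3.11.15 with pandas 2.3.3 and matplotlib 3.10.9.

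Members and gene lists were chosen with earlier results of these data known. Beyond the members and the paralogs of members, the text names the 3 largest differences each way in each list among genes with all 15 Gy arrays on 1 side of the control, and for members spanning more than 1 on the log2 scale the 3 genes most alike. Alternatives comprised other normalizations, a filter on dim probe sets, an added constant, other variance models and leaving out each 15 Gy array. The number of arrays limits the precision, and p-values measure only the spread between the 15 Gy pools, or between all 4 irradiated pools where these were taken as 1 group.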

Additional observations from a re-analysis of the deposited data

Results flagged for a closer look

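In 5 of the genes named from the vascular and hypoxia lists, the 12 Gy array lay above the control and all 15 Gy arrays below it. These were pfkfb4b (0.40 at 12 Gy, −0.46 to −0.13 at 15 Gy), tbx18 (0.15 and −0.30 to −0.05), plcg1 (0.0602 and −0.18 to −0.09), vegfc (0.0444 and −0.35 to −0.02) and rgs5a (0.014 and −0.75 to −0.21), as differences of log2 intensity from the control. The difference between the doses, 15 Gy minus 12 Gy, did not pass by limma in any of the 5 (adjusted p 0.539 to 0.813). Among all 103 measured genes of the lists outside the markers, 8 showed this pattern. The other 3, looked up after their values were seen, were the Notch ligand gene dlc (0.72 at 12 Gy, −0.24 to −0.03 at 15 Gy) and the Notch receptor genes notch1a (0.27 and −0.44 to −0.03) and notch1b (0.24 and −0.31 to −0.0033). Each gene was read by its probe set of highest mean, and the other probe sets of dlc, notch1a and rgs5a did not show this pattern. The opposite pattern was seen in 3 of the 103, aqp1a.1, cxcl12b and sox10. The difference between the doses did not pass by limma in any of these genes (adjusted p 0.52 to 0.813). The shares of all probe sets with either pattern were not counted, so neither count is read as particular to these lists.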

How the results depend on the processing

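No paired analysis was made, because the labels do not pair pools of different doses. In every alternative run, 0 of the 9 marker probe sets passed an adjusted p of 0.05. Over the alternatives, the difference at 15 Gy against control ran from 1.53 to 1.76 for plvapb and from 0.84 to 1.16 for kdrl. It ran from 0.06 to 0.22 for tie1 and from −0.20 to −0.06 for flt4. For cldn5a it ran from 0.50, the mean of its probe sets, to 1.20, and for fli1 from 0.13, the mean of its probe sets, to 0.66. Other probe sets in place of the first, tried after the data were seen, gave 0.0285 and 0.32 for cldn5a and −0.36 for fli1. Probe set Dr.17890.2.A1_at of cldn5a turned to −0.0239 at 15 Gy and −0.0236 at 12 Gy against control after median centring, and to −0.0012 at 12 Gy after another quantile normalization. For 15 Gy against 12 Gy, differences near 0 changed sign. Dr.17890.1.S1_at of cldn5a gave −0.0182 after quantile normalization, −0.0136 after cyclic loess and −0.0049 to 0.062 with each 15 Gy replicate left out, below 0 without replicate 3. Dr.17890.2.A1_at gave −0.0003 after median centring. The flt4 difference turned to 0.0473 after quantile normalization and 0.0294 after cyclic loess, and ran from −0.0615 to 0.05 with a replicate left out, above 0 without replicate 3, and that of Dr.26421.1.A1_at of fli1 to −0.0084 after median centring, with a range of −0.0342, without replicate 1, to 0.0211. The causes were not tested. The 2 marker probe sets below the control in every 15 Gy array became 1 after quantile normalization, cyclic loess or leaving out the dimmest 30%, which kept 5 of the 9. Those at least 2-fold above became 1 after median centring and with log2(value + 16), which shrinks differences of dim probe sets. The 5 vascular genes at least 2-fold above became 3 with that constant, and without replicate 1, 2 or 3 the 0 at least 2-fold below became 0 to 1. Of all probe sets, the fit without moderation passed 195 at 15 Gy against control, beside 0 with it. Without moderation the spread is that of each probe set's own 15 Gy arrays, which in some probe sets are identical or nearly so. The part of such values in the 195 was not tested.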

Other observations

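The list of hypoxia response genes, which includes genes induced when oxygen is low, had 8 of 13 members measured. Of these, 5 lay above the control in every 15 Gy array and 2 below, beside 41.0% and 36.5% of named genes. The 8 had a median difference of 0.51 at 15 Gy and 0.55 at 12 Gy. With limma at an unadjusted p of 0.05, 1 was higher at 15 Gy and 1 lower, against 17.4% and 10.4% of named genes. The glycolysis regulator gene pfkfb3 stood at 6.32 in the control array, 9.82 in the 12 Gy array and 9.56, 8.66 and 9.41 at 15 Gy, which is 2.89 above the control at 15 Gy (SE 0.45, 7.43-fold; limma adjusted p = 0.167). A second pfkfb3 probe set gave 0.51. The oxygen-dependent prolyl hydroxylase gene egln3 stood at 4.50 in the control array, 7.98 in the 12 Gy array and 7.28, 5.90 and 6.31 at 15 Gy, a difference of 2.0 (SE 0.65; limma adjusted p = 0.191). The 12 Gy array was the highest of the 5 for both genes. The stress gene ndrg1a differed by 0.97 (SE 0.37) at 15 Gy, and the mitophagy gene bnip3, which also belongs to this list, by −0.68 (SE 0.18).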
